A study of Mus musculus with 2 samples.

Results

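Hepatocyte growth factor (Hgf) and its receptor Met were followed across the cells of normal and fibrotic mouse liver. The members were the rows of these 2 genes, found by symbol in both deposited expression tables, out of 21722 genes listed in either table (20468 in normal liver and 20473 in fibrosis, 19219 in both). Liver non-parenchymal cells (NPCs, what remains once most hepatocytes have been spun away) came from C57BL/6 male mice of 8 weeks, and single-cell RNA-seq (scRNA-seq) was made with the 10x Chromium 3′ v3 chemistry. The fibrosis library came from a mouse that received carbon tetrachloride (CCl4) in olive oil by intraperitoneal injection 2 times a week for 6 weeks, and the normal library from a mouse given the oil alone. Each condition was 1 library, so no difference between the conditions has a replicate check, no test of it was run, and every interval below is a 95% interval that covers counting error only.

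Hgf is made by cells around the hepatocytes and secreted as an inactive chain that binds to the matrix. Serine proteases such as Hgfac, matriptase (St14), hepsin (Hpn) and urokinase (Plau) cleave it, and the cleaved factor binds Met, a receptor tyrosine kinase best known in the liver for driving hepatocyte growth and survival. Hepatic stellate cells (HSCs), the vitamin A-storing pericytes of the sinusoid, and liver sinusoidal endothelial cells (LSECs) are known sources of Hgf, while Met is known from epithelia. In the mm10 (GRCm38) build used for the files, Hgf, a protein-coding gene on the plus strand (ENSMUSG00000028864.7), lies at chr5:16553495-16620152, and Met, also protein-coding and on the plus strand (ENSMUSG00000009376.15), at chr6:17463800-17573980. The chemistry reads the 3′ end of each transcript and counts unique molecular identifiers (UMIs), so the splice forms of either gene were not told apart and the levels of Hgf and Met were not set against each other.

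After cells with 10% or more mitochondrial UMIs or 200 genes or fewer had been left out, 7471 of 8130 normal and 6132 of 6437 fibrosis cells remained, with medians of 4144.5 and 5619 UMIs a cell, and 15 barcodes occurred in both libraries. Cell types were rebuilt here. Cells were clustered in each library on genes that excluded Hgf, Met and the other genes of the pathway, and a cluster was called X-like from its markers. Free RNA was present in every class: Alb, the hepatocyte product albumin, was found in lymphoid cells at 102.9 UMIs per 10000 (normal) and 11.3 (fibrosis). The level of Hgf or Met in lymphoid cells (1590 normal and 1111 fibrosis cells, the B-cell-like clusters joined with those of NK and T cells) was therefore carried beside every other level as the background. Levels below are counted per 10000 UMIs summed over the cells of a class, each with its exact Poisson interval.

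The labels of the classes that matter here were checked against their markers. Stellate-like cells numbered 64 (normal) and 122 (fibrosis), and 18 of 18 and 17 of 18 listed HSC markers were at least 2-fold over lymphoid cells. Lrat, the enzyme that stores retinol, was found at 16.2 and 16.7 UMIs per 10000 in them, and Col1a1, the fibrillar collagen of scars, at 1.92 and 82.8. LSEC-like cells (1827 and 1497) had 20 of 21 endothelial markers raised in each library, among them the scavenger receptor Stab2 at 13.9 and 12.6. The fibrosis class took in a sub-cluster of 138 cells led by cycling genes such as Mki67 and Top2a, with Hgf at 1.68 (1.49 to 1.89) UMIs per 10000, whereas no normal LSEC-like sub-cluster was led by them and 211 normal cycling cells, with the endothelial list at 96.5, formed a class of their own with Hgf at 0.360 (0.281 to 0.454). Cholangiocyte-like cells (237 and 90) had 12 of 13 markers raised, and mesothelial-like cells (45 and 49) 12 of 12. Some labels held less well. Of the fibrosis stellate-like cells 57 formed a sub-cluster whose 10 leading genes, such as Ogn, Col3a1, Tnc and Lox, held no HSC marker and 1 marker of portal fibroblasts (Ogn). They were kept as stellate-like because 17 of 18 HSC markers were raised 2-fold in them, and each stellate-like sub-cluster is also given by itself. A group of 45 normal cells led by Dpt, Sfrp1, Mmp3 and Mfap4 matched portal fibroblasts (PFs), with Entpd2 at 2.44, but the 82 fibrosis cells that matched the same list, led by Dpep1, Col6a6 and Mfap4, had Entpd2 at 0.25, Vit at 0, Lrat at 3.31 and Reln at 3.53. Both groups are called Mfap4-led cells here. A further group of 59 normal and 193 fibrosis cells had HSC markers together with endothelial or macrophage RNA (endothelial list 177.0 and 147.4 UMIs per 10000, against 62.0 and 42.8 in the stellate-like cells), and was kept apart as HSC/MF cells with other RNA. Their median doublet score was 0.137 and 0.118, against 0.0353 and 0.0637 in stellate-like cells, and the part of doublets in their values was not tested.

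Among classes of at least 30 cells Hgf was highest in stellate-like cells of both libraries, and LSEC-like cells came next once the groups that also carried HSC markers were set aside. In the normal library 564 UMIs of Hgf in the 64 stellate-like cells gave 13.2 per 10000 (12.1 to 14.3), 1084 UMIs in the LSEC-like cells gave 1.20 (1.13 to 1.27), and 75 UMIs in the lymphoid cells gave 0.130 (0.102 to 0.163). Stellate-like cells thus stood 101.8-fold (79.9 to 131.4) over the lymphoid background, LSEC-like cells 9.26-fold (7.32 to 11.9), and stellate-like cells 10.99-fold (9.91 to 12.2) over LSEC-like cells. A gene in general reached 2-fold in these comparisons in 13.4%, 16.7% and 11.4% of the genes with at least 20 UMIs. In the fibrosis library the levels were 6.65 (6.25 to 7.07) in stellate-like, 1.54 (1.47 to 1.62) in LSEC-like and 0.466 (0.396 to 0.546) in lymphoid cells. The same ratios came to 14.3 (12.03 to 17.0), 3.31 (2.81 to 3.93) and 4.31 (3.99 to 4.65), with 13.7%, 13.4% and 12.9% of genes past 2-fold. The lymphoid background itself held endothelial RNA: 257 of the 1111 fibrosis cells, 1 cluster of NK/T-cell-like cells with the endothelial list at 143.9 UMIs per 10000, held 81 of its 155 Hgf UMIs, and 68 of the 1590 normal cells, with the list at 196.6, held 25 of 75. Without these clusters, a choice made after the data were seen, the lymphoid level was 0.0960 (0.0713 to 0.127) in the normal and 0.294 (0.230 to 0.368) in the fibrosis library. The fibrosis ratios over it became 22.7 (17.9 to 29.1) for stellate-like and 5.26 (4.17 to 6.73) for LSEC-like cells, and the normal ones 137.6 (102.9 to 187.6) and 12.5 (9.42 to 16.96). With all HSC/MF-like cells in place of the stellate-like ones, the ratio over lymphoid cells was 42.0 and 9.18 and that over LSEC-like cells 4.54 and 2.77 in the normal and fibrosis libraries. Counted per cell, stellate-like cells were at 186.8 and 59.6 times and LSEC-like cells at 12.6 and 8.96 times the lymphoid cells. Leaving out cells in the top 5% by doublet score made these ratios 187.0 and 19.8 for stellate-like and 16.7 and 4.74 for LSEC-like cells. The order stellate, LSEC, lymphoid held in both libraries, with no overlap of the intervals of their levels.

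**Figure D1:**
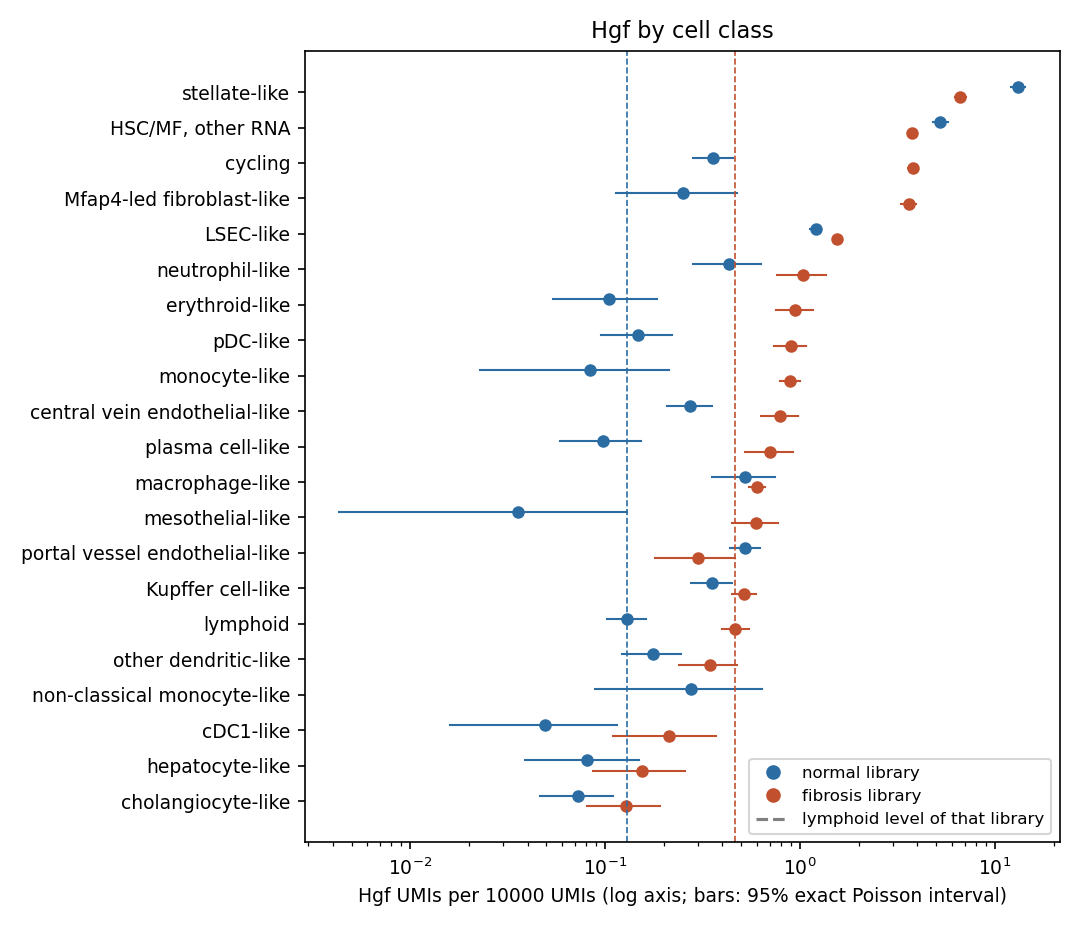
Hgf UMIs per 10000 UMIs (log axis) in each cell class of at least 30 cells, blue for the normal and red for the fibrosis library, with 95% exact Poisson bars and dashed lines at the lymphoid level of each library. Stellate-like cells lie at 13.2 and 6.65 and LSEC-like cells at 1.20 and 1.54, right of the lymphoid lines at 0.130 and 0.466.

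The share of cells with an Hgf UMI gave the same order once depth was made equal. With each cell thinned to 1000 UMIs, 59.4% (46.4 to 71.5) of normal stellate-like cells held Hgf, against 10.3% (8.93 to 11.8) of LSEC-like and 1.07% (0.625 to 1.71) of lymphoid cells. The shares in the fibrosis library were 47.5% (38.4 to 56.8), 13.6% (11.9 to 15.4) and 3.55% (2.54 to 4.82), after 11 LSEC-like and 12 lymphoid cells of fewer UMIs had been left out (2 lymphoid cells in the normal library). Without thinning, 81.2%, 34.9% and 3.65% of the normal and 91.0%, 55.4% and 9.63% of the fibrosis cells of these classes had a UMI, at median depths of 6054, 4560 and 3145 and of 11555.5, 7535 and 2366 UMIs. Because LSEC-like cells were so many, they held 38.5% of all 2817 Hgf UMIs of the normal library in 24.5% of its cells, while the stellate-like cells held 20.02% in 0.857%. HSC/MF cells with other RNA held a further 18.1% in 0.790%. These HSC/MF cells held 23.6% of the 7979 UMIs of the fibrosis library in 3.15% of the cells, LSEC-like cells 23.4% in 24.4%, the cycling cells (92 in number) 14.1% and stellate-like cells 12.7% in 1.99%. These shares depend on how many cells of each kind were recovered.

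Among stellate-like cells Hgf varied widely from cell to cell. The middle 50% of normal cells held 2.75 to 14 UMIs of Hgf with a median of 8 and a maximum of 40, and 12 of 64 cells held none. The fibrosis stellate-like cells came as 2 sub-clusters. The first, 65 cells with Col1a1 at 19.1 and the contractile gene Acta2 at 5.43 UMIs per 10000, had Hgf at 8.02 (7.26 to 8.83), and the other, 57 cells with Col1a1 at 115.4 and Acta2 at 11.8, at 5.95 (5.48 to 6.44). The collagen-rich cells were thus at 0.742 (0.654 to 0.843) of the level of the collagen-poor cells. Counted per cell the order turned, with 10.5 UMIs of Hgf in a collagen-rich and 6.38 in a collagen-poor cell (ratio 1.65, 1.45 to 1.87), since the collagen-rich cells held a median of 16992 UMIs against 6427. Normal stellate-like cells held 8.81 UMIs of Hgf a cell, between these 2 groups.

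**Figure D2:**
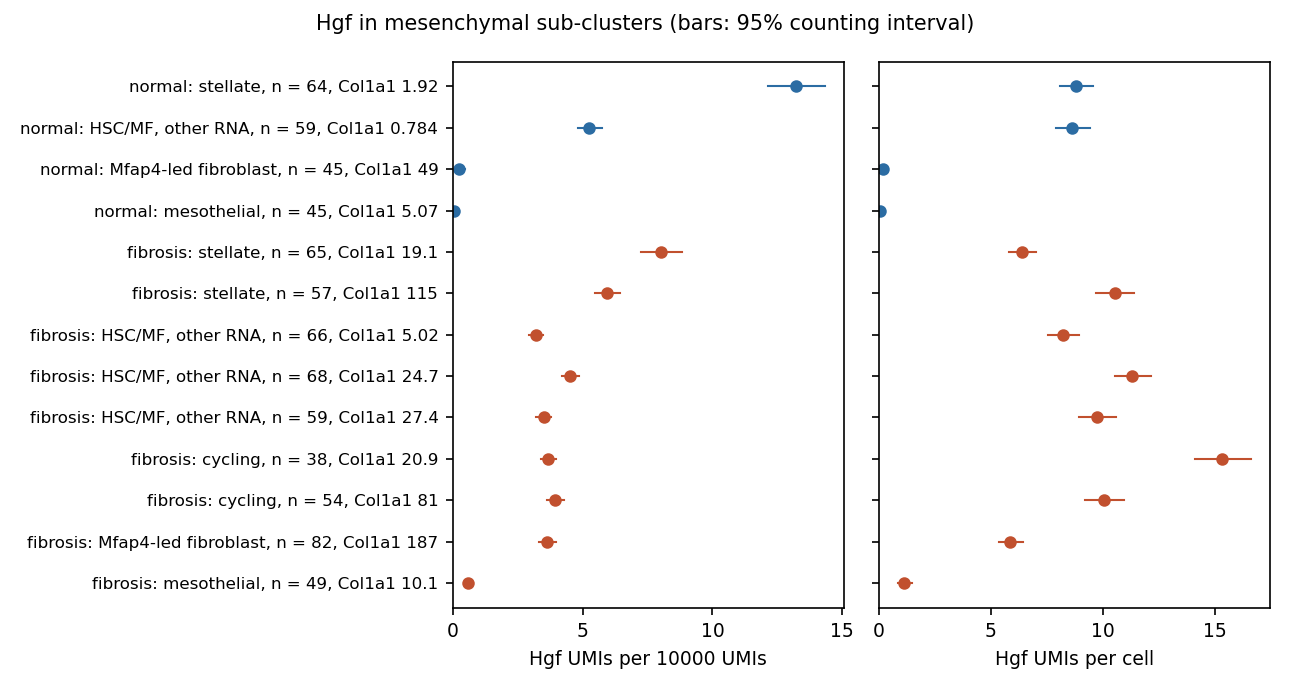
Hgf in each mesenchymal sub-cluster, per 10000 UMIs at left and per cell at right, with 95% counting bars, the number of cells and the Col1a1 level (UMIs per 10000) in the row names. Normal stellate-like cells lead at left with 13.2, while at right they lie at 8.81 UMIs a cell, between the fibrosis stellate-like groups at 6.38 and 10.5.

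Against the other stellate genes Hgf stood in a similar proportion in the stellate-like cells, the HSC/MF cells and the fibrosis cycling cells, and in another one in Mfap4-led cells. Against 1000 UMIs of the HSC marker list, left without Fcna because Kupffer cells share it, Hgf came to 46.4 UMIs (42.6 to 50.4) in normal stellate-like cells, and to 45.5 (41.2 to 50.1) and 49.8 (45.9 to 53.9) in the collagen-poor and collagen-rich fibrosis cells. HSC/MF cells with other RNA gave 40.9 (37.5 to 44.6) and 48.7 (46.5 to 50.9). The cycling cells of the fibrosis library, 92 cells of the mesenchymal clusters with HSC markers at 76.2 UMIs per 10000, gave 49.8 (46.9 to 52.8) and held Hgf at 3.79 (3.57 to 4.02) per 10000, or 12.2 UMIs a cell. They too held endothelial RNA, with the endothelial list at 85.8 UMIs per 10000, and their median doublet score was 0.0901. The intervals of these 6 groups overlapped, apart from normal HSC/MF cells with other RNA, which lay below the collagen-rich cells, the fibrosis HSC/MF cells and the cycling cells. Mfap4-led cells lay outside this range on both sides, at 12.4 (5.65 to 23.5) in the normal and 80.9 (73.9 to 88.5) in the fibrosis library. The normal cycling cells, with the HSC list at 1.04 UMIs per 10000, gave 346.3 (270.5 to 436.9). The list was also used to define the stellate-like cells, so this is a description of Hgf beside it.

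LSEC-like cells held Hgf in quite another proportion to HSC markers. Their Hgf came to 674.5 UMIs (635.0 to 715.9) per 1000 UMIs of the HSC list in the normal and 448.0 (428.0 to 468.8) in the fibrosis library. In the normal library 851 of 1827 LSEC-like cells held no UMI of the HSC list, and their Hgf stood at 1.28 (1.17 to 1.40) per 10000, against 1.15 (1.06 to 1.24) in the others. In the fibrosis library 157 of 1497 cells held none, with Hgf at 1.39 (1.15 to 1.67) against 1.56 (1.48 to 1.63). In each library the intervals of these 2 sets of LSEC-like cells overlapped. Lymphoid cells gave 87.8 (69.1 to 110.1) and 73.5 (62.4 to 86.0) per 1000 UMIs of the HSC list. Where they held no such UMI their Hgf was 0.0698 (0.0442 to 0.105) and 0.334 (0.198 to 0.527) per 10000. The other lymphoid cells had 0.209 (0.156 to 0.274) and 0.492 (0.413 to 0.582), and the intervals of these sets overlapped in the fibrosis library only.

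Within the endothelium Hgf was lower in the larger vessels than in the sinusoid. Central vein endothelial-like cells, marked by the Wnt signal enhancer Rspo3 at 20.8 and 21.8 UMIs per 10000 and by Wnt9b at 3.95 and 5.59, had Hgf at 0.274 (0.208 to 0.353) in 344 normal and 0.788 (0.629 to 0.976) in 107 fibrosis cells. That was 0.228 (0.172 to 0.296) and 0.511 (0.405 to 0.636) of the level in LSEC-like cells. Of the normal cells 57 had no central vein marker among their 10 leading genes, though 9 of 10 were raised, and without them the level was 0.318 (0.240 to 0.413), or 0.265 (0.199 to 0.347) of the LSEC-like level. Portal vessel endothelial-like cells, marked by the arterial connexin Gja5 at 3.76 and 7.82, had Hgf at 0.522 (0.435 to 0.620) in 358 normal and 0.299 (0.180 to 0.466) in 103 fibrosis cells, which was 0.434 (0.358 to 0.522) and 0.193 (0.116 to 0.303) of the LSEC-like level. In these comparisons 3.46% and 7.1% of genes for the central vein and 6.46% and 9.4% for the portal vessels were at least 2-fold lower than in LSEC-like cells. The portal vessel level of the fibrosis library was below that of lymphoid cells, with intervals that overlapped, and was 1.02-fold (0.580 to 1.70) that of lymphoid cells without the clusters that held endothelial RNA. Fibrosis over normal, the ratio was 2.88 (2.04 to 4.09) for central vein and 0.572 (0.334 to 0.931) for portal vessel cells, where 6.13% of genes were at least 2-fold higher in the former. Without the 57 normal cells the central vein ratio was 2.48 (1.75 to 3.54), and that of lymphoid cells was 3.60 (2.71 to 4.80). Over lymphoid cells without the clusters that held endothelial RNA, central vein cells stood at 2.85 (1.92 to 4.24) in the normal and 2.69 (1.94 to 3.72) in the fibrosis library.

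Along the sinusoid itself the cells named zone 1 had less Hgf than the other LSEC-like cells in the fibrosis library, and no zone 2/3 group was found in the normal library. Zone 1 LSEC-like cells, the periportal end, had Hgf at 1.29 (1.12 to 1.47) in the normal library, and the other LSEC-like cells at 1.18 (1.11 to 1.26), with intervals that overlapped. In the fibrosis library zone 1 cells were lower, at 1.04 (0.907 to 1.20) against 1.48 (1.30 to 1.69) in zone 2/3 cells and 1.67 (1.59 to 1.76) in the LSEC-like cells of no zone, without overlap of the zone 1 interval with either. The sub-clusters of no zone in the normal library lay between 1.10 and 1.45, apart from 1 of 241 shallow cells (median 1667 UMIs) at 0.352 and 1 of 31 cells at 0.599. In the fibrosis library they lay between 1.36 and 1.84, apart from 1 of 165 shallow cells (median 2142 UMIs) at 2.33 (1.89 to 2.84). The shallowest group was thus the lowest but for the central vein in 1 library and the highest in the other, and the part of depth in this was not tested.

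**Figure D3:**
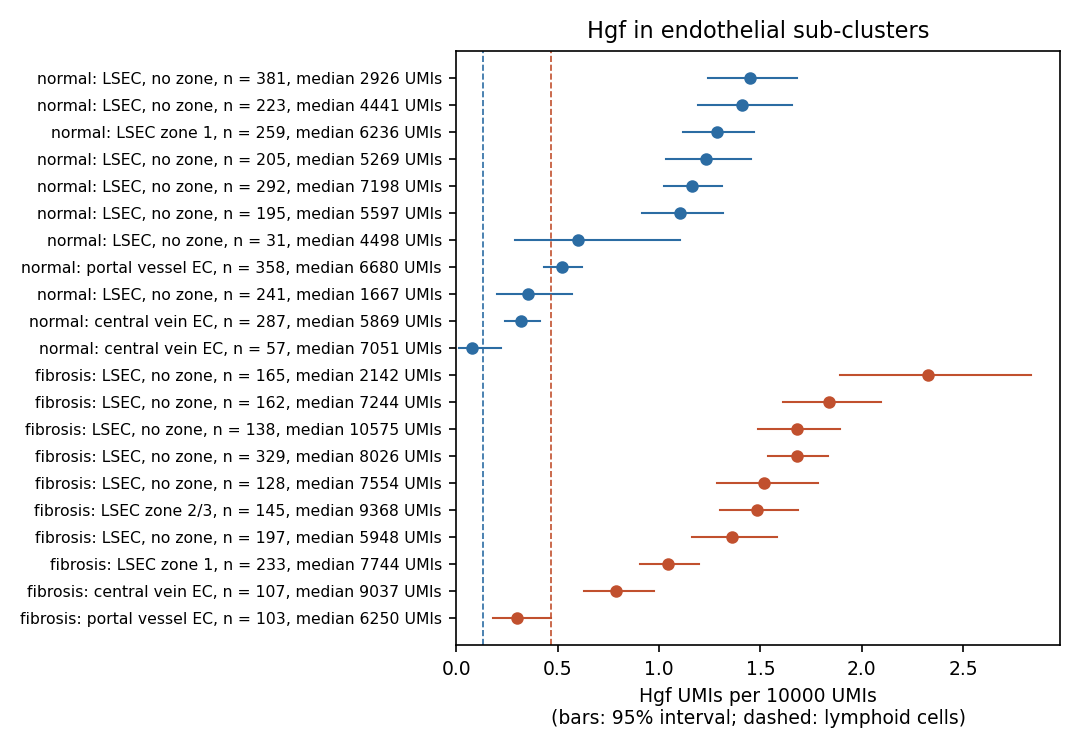
Hgf UMIs per 10000 UMIs in each endothelial sub-cluster, blue for the normal and red for the fibrosis library, with 95% counting bars and dashed lines at the lymphoid levels. Central vein groups (0.0755 and 0.318 normal, 0.788 fibrosis) and portal vessel groups (0.522 and 0.299) lie to the left of most sinusoidal groups.

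A count that did not use the sub-clusters gave the same picture for the vessels. Among all cells of the endothelial clusters, the 269 normal cells with a UMI of Wnt9b had Hgf at 0.224 per 10000 and the other 2260 cells at 1.03, a ratio of 0.217 (0.153 to 0.299). The corresponding ratio in the fibrosis library was 0.694 (0.603 to 0.796), from 1.04 in 209 cells and 1.503 in 1498. Cells with the portal gene Gja5 stood at 0.320 (0.240 to 0.418) of the others among normal and 0.435 (0.340 to 0.548) among fibrosis cells. For the zone 1 genes Efnb2 and Dll4 the ratios were 1.22 (1.09 to 1.36) and 1.21 (1.08 to 1.36) in the normal and 0.918 (0.839 to 1.004) and 0.983 (0.898 to 1.07) in the fibrosis library. For Msr1, a scavenger receptor of the same list, they were 1.54 (1.36 to 1.75) and 1.16 (1.02 to 1.33), and for Ltbp4, which binds latent TGF-β, 1.76 (1.41 to 2.23) and 0.876 (0.781 to 0.985). Of the zone 2/3 genes, Wnt2 gave 0.901 (0.806 to 1.01) and 1.03 (0.945 to 1.13), Kit 1.05 (0.938 to 1.18) and 1.16 (1.05 to 1.29), and Thbd 0.668 (0.597 to 0.747) and 0.969 (0.870 to 1.08). Cells with Wnt9b or Gja5 thus had less Hgf in both libraries, while the genes of the sinusoidal zones did not go one way across the libraries. Cells with a zone 1 gene were deeper than those without, with medians of 6248 against 4335 UMIs for Efnb2, 6178 against 4294 for Dll4, 5773 against 4223 for Msr1 and 5626 against 2594 for Ltbp4 in the normal library, and the part of depth was not tested.

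Between the libraries Hgf per 10000 UMIs was lower in fibrosis in stellate-like cells and higher in LSEC-like cells. The ratio of fibrosis over normal was 0.504 (0.454 to 0.559) for stellate-like cells and 1.29 (1.19 to 1.39) for LSEC-like cells, and it was 3.60 (2.71 to 4.80) for the lymphoid background, where 11.1% of genes reached 2-fold upward. The 2 stellate-like sub-clusters of the fibrosis library were at 0.607 (0.533 to 0.690, collagen-poor) and 0.450 (0.401 to 0.506, collagen-rich) of the normal stellate-like cells, and with all HSC/MF-like cells in both libraries the ratio was 0.786 (0.734 to 0.842). Neither ratio of the first 2 classes reached 2-fold, a size that 6.96% of genes reached downward in stellate-like and 8.68% upward in LSEC-like cells. With the lymphoid level of its own library taken off, Hgf in LSEC-like cells was 1.07 (normal) and 1.08 (fibrosis), a ratio of 1.01. With the lymphoid level taken without the clusters that held endothelial RNA, the remainders were 1.11 and 1.25, a ratio of 1.13. In stellate-like cells taking off the whole lymphoid level left 13.1 and 6.18. Per cell, stellate-like cells held 8.81 and 8.32 UMIs of Hgf, a ratio of 0.944, while LSEC-like cells held 0.593 and 1.25, a ratio of 2.11, at median depths of 6054 and 11555.5 and of 4560 and 7535 UMIs. Fewer Hgf transcripts and more transcripts of other genes in a stellate-like cell cannot be told apart from a level per 10000.

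**Figure D4:**
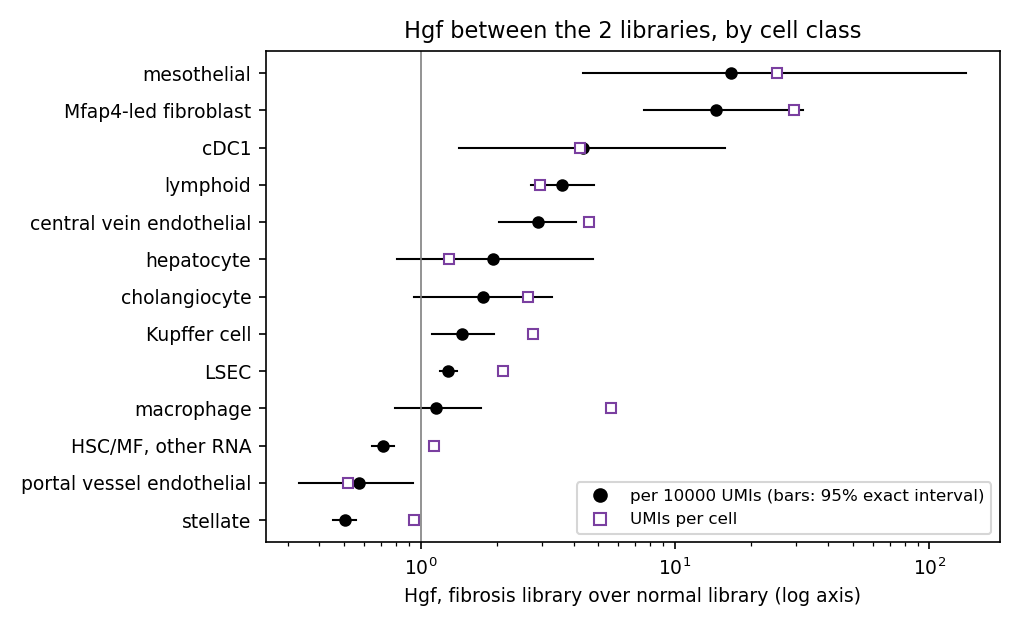
Hgf in the fibrosis library over the normal library for each class (log axis), with filled circles for UMIs per 10000 and their 95% exact bars, and open squares for UMIs per cell. Stellate-like cells lie at 0.504 per 10000 and 0.944 per cell, LSEC-like cells at 1.29 and 2.11, lymphoid cells at 3.60 and 2.96.

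Larger ratios between the libraries were found in other mesenchymal cells. Mfap4-led cells held 9 UMIs of Hgf in 45 normal cells, 0.2497 per 10000 (0.114 to 0.474), and 481 in 82 fibrosis cells, 3.61 (3.30 to 3.95), a ratio of 14.5 (7.56 to 31.8) where 15% of genes were at least 2-fold higher. In the normal library this level was 1.93-fold (0.848 to 3.85) over lymphoid cells, and in the fibrosis library 7.75-fold (6.46 to 9.35), a comparison in which 15.9% of genes reached 2-fold. Over lymphoid cells without the clusters that held endothelial RNA, the latter was 12.3 (9.63 to 15.95). Of the fibrosis cells 77 of 82 held a UMI of the HSC genes Lrat or Reln, against 3 of 45 normal cells, and the HSC list summed to 44.7 UMIs per 10000 against 20.2. The 5 fibrosis cells without Lrat or Reln had Hgf at 3.33 (2.04 to 5.15), from 20 UMIs in 3 of the cells. Mesothelial-like cells went from 2 UMIs in 45 cells, 0.0357 (0.00433 to 0.129), to 55 in 49 cells, 0.591 (0.445 to 0.770), of which 30 lay in 3 cells. That was a ratio of 16.6 (4.37 to 140.1) where 14.1% of genes were 2-fold higher, and the fibrosis level was 1.27-fold (0.915 to 1.74) that of lymphoid cells, or 2.01-fold (1.39 to 2.89) without the clusters that held endothelial RNA. The HSC list in mesothelial-like cells went from 6.25 to 17.0 UMIs per 10000 and the mesothelial list from 238.5 to 121.7. Whether the RNA of stellate cells in these groups bears on their Hgf was not tested.

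Immune classes of at least 30 cells all had less Hgf than LSEC-like cells. Normal Kupffer cell-like cells, the resident macrophages, had 0.355 (0.277 to 0.448) and macrophage-like cells 0.522 (0.352 to 0.745), which was 2.74-fold (1.95 to 3.84) and 4.02-fold (2.54 to 6.22) over lymphoid cells, where 10.6% and 9.84% of genes reached 2-fold. In the fibrosis library the levels were 0.517 (0.447 to 0.595) and 0.602 (0.545 to 0.663), and the ratios 1.11 (0.894 to 1.38) and 1.29 (1.07 to 1.56), which became 1.76 (1.34 to 2.33) and 2.05 (1.60 to 2.66) without the lymphoid clusters that held endothelial RNA. The macrophage-like classes of the libraries were unlike. Of the 189 normal cells 146, with a median of 1607 UMIs, were led by Pf4 and C1qb, with the Kupffer cell markers Fabp7 and Vsig4 among their leading genes. The 459 fibrosis cells had Gpnmb, Lgals3 and Trem2 among theirs. Monocyte-like, pDC-like and neutrophil-like cells of the fibrosis library had 0.887, 0.895 and 1.03, beside an endothelial list of 106.7, 112.3 and 100.2 UMIs per 10000 that Kupffer cell-like cells (20.4) did not have. Cholangiocyte-like cells were at 0.0728 and 0.128 and hepatocyte-like cells at 0.0808 and 0.155. Over lymphoid cells without the clusters that held endothelial RNA, the fibrosis ratios were 0.435 (0.260 to 0.703) and 0.529 (0.282 to 0.930), and the normal ones, 0.758 (0.441 to 1.27) and 0.841 (0.380 to 1.68), had intervals that held 1.

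Met was led by mesothelial-like cells, the epithelium of the liver surface. Of the normal cells, 77 UMIs in 45 mesothelial-like cells gave 1.38 per 10000 (1.09 to 1.72), 237 UMIs in 237 cholangiocyte-like cells gave 0.750 (0.657 to 0.852), and 60 UMIs in 101 cDC1-like cells, the cross-presenting dendritic cells, gave 0.589 (0.449 to 0.758). The fibrosis library gave 2.11 (1.82 to 2.42), 0.616 (0.507 to 0.742) and 0.585 (0.403 to 0.821) from 196, 111 and 33 UMIs. Lymphoid cells held 29 and 9 UMIs, 0.0501 (0.0336 to 0.0720) and 0.0271 (0.0124 to 0.0514). Mesothelial-like cells came first in both libraries without overlap, whereas the intervals of cholangiocyte-like and cDC1-like cells overlapped.

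**Figure D5:**
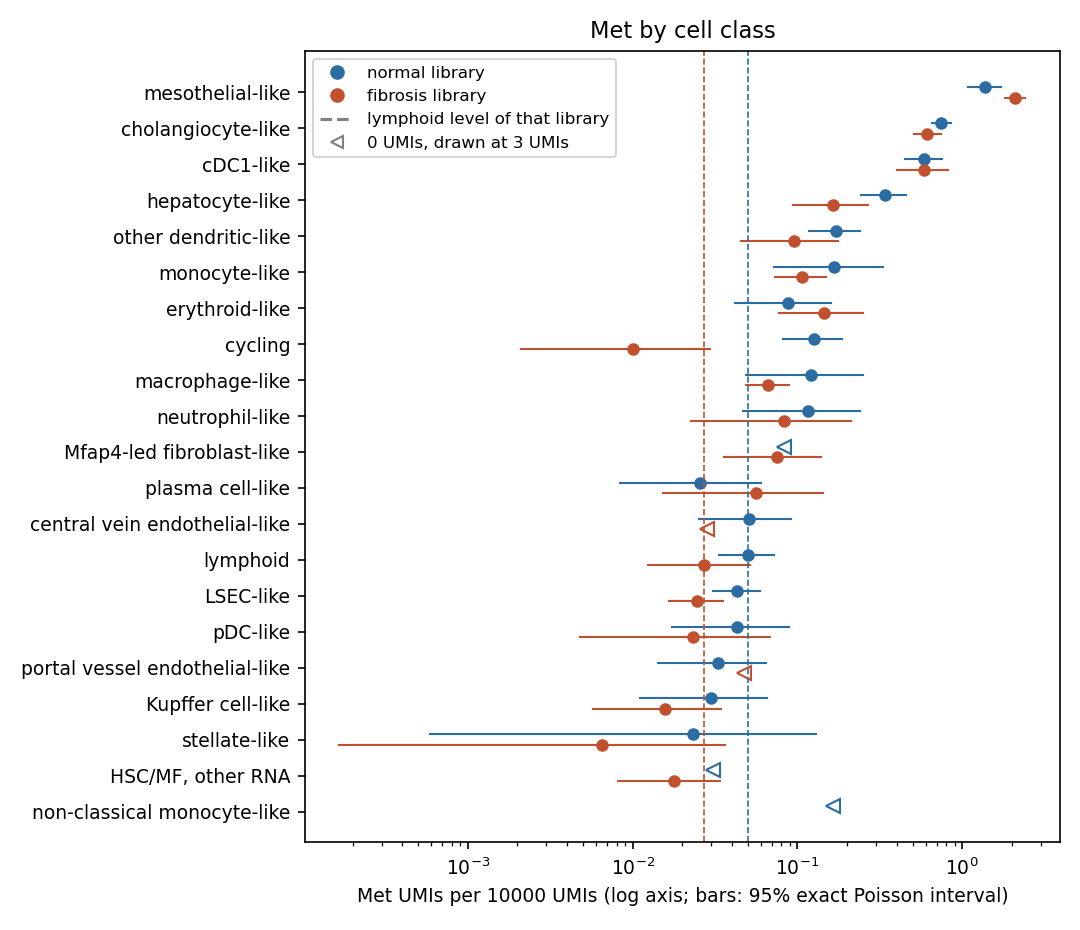
Met UMIs per 10000 UMIs (log axis) in each cell class of at least 30 cells, blue for the normal and red for the fibrosis library, with 95% exact Poisson bars, dashed lines at the lymphoid levels and open triangles at the level of 3 UMIs where none was counted. Mesothelial-like cells lie at 1.38 and 2.11 and cholangiocyte-like cells at 0.750 and 0.616, with LSEC-like cells at 0.0432 and 0.0248 beside the lymphoid lines.

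Over lymphoid cells Met was 27.4-fold (17.7 to 43.6) higher in mesothelial-like cells of the normal library and 77.8-fold (40.2 to 172.8) in the fibrosis library, where 15.2% and 13.7% of genes reached 2-fold. For cholangiocyte-like cells the ratios were 15.0 (10.1 to 22.8) and 22.8 (11.6 to 51.1) with 20.9% and 19.2% of genes, and for cDC1-like cells 11.7 (7.42 to 19.0) and 21.6 (10.1 to 51.3) with 7.71% and 7.66%. Counted per cell the ratios of these 3 classes were 93.8 and 493.8, 54.8 and 152.2, and 32.6 and 71.5. Between the libraries mesothelial-like cells had 1.53-fold (1.17 to 2.02) more Met per 10000 in fibrosis. The ratios of cholangiocyte-like cells, 0.822 (0.650 to 1.03), and cDC1-like cells, 0.993 (0.629 to 1.54), had intervals that held 1. Thinned to 1000 UMIs, 28.9% (16.4 to 44.3) and 17.0% (7.65 to 30.8) of mesothelial-like cells had a UMI of Met, an order opposite to the levels with overlapping intervals. The corresponding shares were 8.02% and 5.56% for cholangiocyte-like, 4.95% and 1.75% for cDC1-like and 0.315% and 0.182% for lymphoid cells. Unthinned, 68.9% and 89.8% of mesothelial-like, 52.7% and 56.7% of cholangiocyte-like and 41.6% and 40.4% of cDC1-like cells had one, against 1.76% and 0.810% of lymphoid cells.

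Hepatocytes, the textbook site of Met in the liver, were mostly removed before the libraries were made. The hepatocyte-like cells that remained, 125 normal and 145 fibrosis cells, had Met at 0.339 (0.244 to 0.458) and 0.166 (0.0946 to 0.269), 6.76-fold (4.11 to 11.3) and 6.12-fold (2.54 to 15.7) over lymphoid cells, with 10.7% and 15.5% of genes past 2-fold. Their markers were lower in fibrosis, with the hepatocyte list at 757.9 against 2093.8 UMIs per 10000 and a median of 2038 against 7863 UMIs a cell. Against 1000 UMIs of that list Met came to 0.162 (0.117 to 0.219) in normal hepatocyte-like cells, and to 0.190 (0.135 to 0.259) in LSEC-like and 0.153 (0.102 to 0.219) in lymphoid cells of that library. Cholangiocyte-like, cDC1-like and mesothelial-like cells gave 3.50, 4.55 and 13.8. In the normal library the intervals of LSEC-like and lymphoid cells thus overlapped that of hepatocyte-like cells. They did not in the fibrosis library, with 0.218 (0.125 to 0.355) in hepatocyte-like, 1.46 (0.987 to 2.09) in LSEC-like and 0.824 (0.377 to 1.56) in lymphoid cells.

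In LSEC-like and stellate-like cells Met per 10000 UMIs did not exceed the lymphoid background beyond counting error. LSEC-like cells held 39 UMIs in 1827 normal and 30 in 1497 fibrosis cells, 0.0432 (0.0307 to 0.0591) and 0.0248 (0.0167 to 0.0353) per 10000, which was 0.862 (0.519 to 1.44) and 0.914 (0.423 to 2.19) of the lymphoid level. Counted per cell, where LSEC-like cells were deeper, the fibrosis ratio was 2.47 (1.15 to 5.92). Stellate-like cells held 1 UMI in each library, which gave ratios of 0.467 (0.0114 to 2.82) and 0.242 (0.00552 to 1.75). Met was not counted in the Mfap4-led cells of the normal library, with an upper limit of 0.102 per 10000, and 10 UMIs gave 0.0752 (0.0360 to 0.138) in those of the fibrosis library. In central vein and portal vessel endothelial-like cells of the fibrosis library it was at 0 as well, with upper limits of 0.0346 and 0.0580. Across the cells of each library 35 normal and 115 fibrosis cells held a UMI of both genes, out of 1221 and 2139 with Hgf and 439 and 303 with Met. Over 44 class levels from the 2 libraries the logs of Hgf and Met had a Pearson r of -0.476, as a description of classes that share libraries and free RNA.

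Proteases that activate the factor were found in hepatocyte-like and cholangiocyte-like cells. In the normal library Hgfac was at 1.785 UMIs per 10000 in hepatocyte-like cells against 0.225 in lymphoid cells, and in the same order Plg (plasminogen) was at 20.8 and 1.51 and F12 (factor XII) at 4.71 and 0.574. Of the 10 genes of this list, 6 of 7 with enough UMIs were at least 2-fold higher in normal hepatocyte-like cells than in lymphoid cells and 6 of 8 in fibrosis, where 10.7% and 15.5% of all genes were. Membrane proteases were found in cholangiocyte-like cells, which also held Met, with St14 at 0.984 and 1.24, Hpn at 1.98 and 1.97 and Tmprss2 at 0.266 and 0.300 in the normal and fibrosis libraries. The hepatocyte list stood at 214.3 and 107.7 UMIs per 10000 in these cells, against 328.4 and 32.9 in lymphoid cells. The part of hepatocyte RNA in their Hpn was not tested. The protease inhibitors Spint1 and Spint2 were highest in cholangiocyte-like cells among the classes given, at 1.275 and 3.62 in the normal and 1.405 and 4.04 in the fibrosis library. In lymphoid cells Spint1 was at 0.00519 and 0.0150 and Spint2 at 0.571 and 0.505. Plat, the tissue plasminogen activator, was at 0.0702 in normal and 2.15 in fibrosis stellate-like cells. In Mfap4-led cells its ratio of fibrosis over normal was 1.75 (1.35 to 2.28). Plau was at 0.184 and 0.201 in LSEC-like cells.

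The sister receptor Mst1r, which binds macrophage-stimulating protein (Mst1), was found beside Met in mesothelial-like cells, at 0.357 and 0.570, and Mst1 in hepatocyte-like cells at 1.56 and 0.507 UMIs per 10000. Partners that Met is known to bind were spread over several classes. Plxnb1, a semaphorin receptor, was at 1.47 and 1.69 in cholangiocyte-like cells, Cd44, a hyaluronan receptor, at 5.46 and 7.64 in Kupffer cell-like cells, and Nrp1 and Nrp2, the neuropilins, at 11.95 and 5.395 in normal and 11.5 and 5.785 in fibrosis LSEC-like cells. Sdc4, a heparan sulphate proteoglycan, reached 5.31 and 10.999 in mesothelial-like cells. Dcn, the matrix proteoglycan decorin that is known to bind Met, was at 181.4 and 126.3 in stellate-like cells, 122.3 and 52.0 in Mfap4-led cells and 0.370 and 1.735 in LSEC-like cells.

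The 54 genes of the pathway lists were also counted together. Of 46 list genes with at least 20 UMIs, 10 were at least 2-fold higher and 6 at least 2-fold lower in stellate-like than in LSEC-like cells of the normal library, where 11.4% and 20% of all genes were, and the median ratio was 0.871 beside 0.880 over all genes. Besides Hgf the higher genes were Plxnb1, Sdc2, Sdc4, Gab1, Ptpn11, Pik3r1, Src, Ptprj and Dcn, and the lower ones Plau, Plaur, Spint2, Itga6, Nrp1 and Nrp2. Gab1, the docking protein of Met, was at 1.69 in stellate-like and 0.414 in LSEC-like cells. Between the libraries 3 of 39 list genes were at least 2-fold higher in fibrosis in stellate-like cells (Plat and Cd44 among them) and 2 lower (Plg and F2), where 10.6% and 6.96% of all genes were. Both are hepatocyte products, and the hepatocyte list stood at 183.8 UMIs per 10000 in normal and 13.3 in fibrosis stellate-like cells. In LSEC-like cells 7 of 50 were higher and 9 lower, where 8.68% and 8.35% of all genes were, and 6 of the 9 were the proteases Hgfac, Hpn, Plg, F2, F12 and Klkb1. Hepatocyte RNA moved with these, with the hepatocyte list at 227.9 UMIs per 10000 in normal and 16.9 in fibrosis LSEC-like cells, and its part in them was not tested. None of the 15 adaptors and signal carriers, among them Grb2, Pik3ca and Akt1, reached 2-fold between the libraries in either class.

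The genes whose levels ran most like Hgf across the 44 class levels were stellate genes. By Pearson r of log2(UMIs per 10000 + 0.05) over 8985 genes, the closest were Hs3st3b1 (0.890), a heparan sulphate sulfotransferase, Masp1 (0.887), a protease of the lectin complement pathway, Rerg (0.886), Emilin1 (0.886), an elastic fibre glycoprotein, and Slmap (0.871). Each was highest in the stellate-like cells of 1 of the libraries, Masp1 at 19.8 and Hs3st3b1 at 5.85 in the normal library. The genes most like Met were epithelial: Lsr (0.811), a tight junction protein, Cobl (0.798), Cxadr (0.779), a junctional adhesion receptor, Krt7 (0.765), a keratin, and Myo5b (0.763). Lsr and Cxadr were highest in fibrosis cholangiocyte-like cells, at 1.90 and 4.02, and Cobl, Krt7 and Myo5b in normal mesothelial-like cells, at 1.84, 4.72 and 1.95.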

How the data were processed

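The authors aligned reads to mm10 with Cell Ranger 3.0.1 and deposited 1 table of UMI counts per library, not normalised, and state that doublets were removed with Scrublet. From the counts, cells with under 10% mitochondrial UMIs and over 200 genes were kept, scaled to 10000 UMIs, log-transformed and clustered within each library in scanpy 1.11.5 (2000 variable genes, 10 components, 20 neighbours, Leiden resolution 0.8), with the 54 genes of the pathway lists held out. Scrublet, run again, called 1 cell in each library, so no further doublets were removed. Clusters were named by the class with most markers among their 10 leading genes and at least 3 markers raised 2-fold. Mesenchymal, endothelial and dendritic clusters were clustered again by the same rule, except that a mesenchymal sub-cluster with 1 leading marker of the HSC or PF list went to the list with the larger share raised, and an endothelial one with none to a vessel list with most of its markers raised. Each exception named 1 sub-cluster of 57 cells without a leading marker of its name. Stellate-like groups had a summed HSC list at least 2 times that of the endothelial, macrophage, Kupffer cell, cycling, PF and mesothelial lists. These naming rules were set after the clusters were seen, and the members and lists were chosen with earlier results of these data known. Total counts came to 44062632 UMIs (normal) and 53288463 (fibrosis).

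Levels carry exact Poisson 95% intervals, shares Clopper-Pearson intervals and ratios exact conditional binomial intervals. With 1 library a condition no test was made. Genes with at least 20 UMIs over the groups compared entered counts past 2-fold. A level of 0 for Met was given with its upper Poisson limit and drawn in the figure at 3 counts. Named genes were Hgf, Met, the listed pathway genes, the 5 genes most like each member (highest Pearson r over classes of at least 30 cells, at least 0.5 UMIs per 10000 in a class, without mitochondrial, ribosomal protein and haemoglobin genes) and markers used to check a label. Pathway genes given with values were picked for their role, after their values were seen. Ratio intervals were tested on counts simulated from the Poisson model that they assume, and the correlation rule on planted multiples of a single profile. Spread between cells was not simulated. Gene positions are from GENCODE vM21. Values of 2 genes of the pathway lists are not reported here, though the genes are in the counts over the lists.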

Additional observations from a re-analysis of the deposited data

Results flagged for a closer look

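Per 10000 UMIs, Hgf went opposite ways between the libraries in different classes. The ratio of fibrosis over normal was 0.504 in stellate-like cells and 1.29 in LSEC-like cells, so that the LSEC-like ratio was 2.55 times the stellate-like ratio, and in Mfap4-led cells it was 14.5, or 28.7 times the stellate-like ratio. With 1 library for each condition these differences between classes were not tested. Per cell the stellate-like and LSEC-like ratios were 0.944 and 2.11, and with the lymphoid level taken off they were 0.473 and 1.01. With all HSC/MF-like cells in place of the stellate-like ones the former was 0.786. The lymphoid level was 3.60-fold higher in the fibrosis library, and 77 of 82 fibrosis Mfap4-led cells held Lrat or Reln.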

How the results depend on the processing

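No paired analysis was possible because each condition was 1 library. Of the recomputed values 163 stayed within the counting interval of the value reported (for counts of genes, within 1.5 times), 48 moved outside it, and none crossed 1 where that interval lay to 1 side of it. Counted as UMIs per cell, Hgf in stellate-like over lymphoid cells came to 186.8 (normal) and 59.6 (fibrosis), LSEC-like over lymphoid to 12.6 and 8.96, stellate-like over LSEC-like to 14.9 and 6.66, and fibrosis over normal to 0.944 in stellate-like and 2.11 in LSEC-like cells, while Met over lymphoid came to 54.8 and 152.2 in cholangiocyte-like, 93.8 and 493.8 in mesothelial-like, 32.6 and 71.5 in cDC1-like and 2.47 (fibrosis) in LSEC-like cells. Without the 5% of cells with the highest Scrublet scores, Hgf over lymphoid cells was 187.0 and 19.8 in stellate-like and 16.7 and 4.74 in LSEC-like cells. With B-cell-like cells alone as the background it was 156.6 (stellate-like, normal) and 14.2 and 3.94 (LSEC-like). Without lymphoid clusters that held endothelial RNA, chosen after the data were seen, it was 137.6 and 22.7 in stellate-like and 12.5 and 5.26 in LSEC-like cells. With all HSC/MF-like cells in place of the stellate-like ones, Hgf was 42.0 and 9.18 over lymphoid, 4.54 and 2.77 over LSEC-like cells, and 0.786 in fibrosis over normal. With pathway genes not held out, it was 140.0 over lymphoid and 12.9 over LSEC-like cells in normal stellate-like cells, 3.93 in fibrosis LSEC-like over lymphoid cells, and 1.62 in fibrosis over normal LSEC-like cells. Without the fibrosis stellate-like sub-cluster that had no HSC marker among its leading genes, also chosen after the data were seen, Hgf in stellate-like cells was 17.2 over lymphoid and 5.19 over LSEC-like cells and 0.607 in fibrosis over normal. Resolutions of 0.4 and 1.5 gave 12.4 and 12.5 for normal stellate-like over LSEC-like cells and 1.48 and 1.39 for LSEC-like cells between the libraries. Taking off the lymphoid level gave 12.2 and 5.74 for stellate-like over LSEC-like cells and 1.01 for LSEC-like cells between the libraries, and LSEC-like cells with no UMI of the HSC list gave 4.77 (stellate-like over LSEC-like, fibrosis) and 1.09 (between the libraries). The causes were not tested, except that scaling per cell brings in depth. Genes past 2-fold between the libraries in stellate-like cells were 1631, and 801 with at least 50 UMIs, since fewer genes enter. Depth limits the levels of Met in LSEC-like cells, which held 39 and 30 UMIs of it.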

Other observations

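A few basophil or mast cell-like cells of the normal library held Hgf far above their surroundings. In this group of 9 cells, chosen after its values were seen and too small for the class comparisons, 17 UMIs gave 5.41 per 10000 (3.15 to 8.66), 7 cells held a UMI, and none held Met. The HSC list stood at 0.318 (1 UMI) and the endothelial list at 15.0 UMIs per 10000 in them, below the 1.48 and 42.1 of lymphoid cells. Taken from any cluster by at least 3 basophil and mast cell markers, 12 normal cells had Hgf at 3.60 (2.23 to 5.50) and 11 fibrosis cells at 5.21 (3.61 to 7.28), in 9 cells of each, beside an HSC list of 1.20 and 46.0 and an endothelial list of 103.1 and 75.6.

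An unnamed fibrosis sub-cluster of 29 cells led by Cxcl5, Clca3a2 and Fndc1, with Col1a1 at 49.6, held 68 UMIs of Met, 0.804 per 10000 (0.624 to 1.02), of which 26 lay in 3 cells. Its Hgf was 0.284 (0.182 to 0.422), below the stellate-like cells of that library at 6.65.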
